A study of Mus musculus with 18 samples.

Results

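The genes of MHC class II antigen presentation and of T cell costimulation were followed in basophils and mast cells. They were the class II chain genes H2-Aa, H2-Ab1 and H2-Eb1, the peptide-loading genes H2-DMa and Cd74, the regulator Ciita, and the costimulatory genes Cd80, Cd86 and Cd40. Each was chosen by its gene symbol in the platform annotation, with the probe of the highest mean over all arrays where a gene had several. All 9 genes had a probe, of 19084 genes measured. RNA of C57Bl/6 mouse cells was hybridized to 18 single-colour arrays of 26423 probes, in 6 groups of 3.

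Treated floxed basophils carried a loxP-flanked Cebpa (Cebpa f/f) and RosaYFP/creER, a fluorescent reporter with a tamoxifen-inducible Cre recombinase, and were cultured for 5 days in 20 ng/ml interleukin-3 with 100 nM 4-hydroxytamoxifen, which activates that Cre. Untreated floxed basophils had the same genotype and culture without the drug. Treated and untreated wild type basophils were Cebpa +/+ with the same RosaYFP/creER, so Cre and reporter were shared by all 4 cultured groups. Fresh basophils were purified from bone marrow 3 days after an injection of interleukin-3 bound to its antibody, and mast cells were grown from marrow for 4 weeks in 20 ng/ml interleukin-3. The labels give no genotype for these last groups, no age, no vehicle for untreated cells, and leave unsaid if the replicates are separate animals or separate cultures, so the p-values cover no more than array-to-array spread, possibly technical. The design asks which genes differ between basophils and mast cells, and which need Cebpa in basophils; Cebpa encodes C/EBP alpha, a transcription factor that drives myeloid differentiation.

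MHC class II molecules present peptides from endocytosed proteins to CD4+ T cells, and a T cell is fully activated only if it also receives a costimulatory signal, such as CD80 or CD86 on the presenting cell binding its CD28. Dendritic cells, B cells and macrophages are the classical presenting cells, while basophils have been reported to carry class II in some settings. Transcription of class II genes depends on CIITA, a coactivator that joins the factors RFX, CREB and NF-Y at the X and Y boxes of their promoters. C57Bl/6 mice have the H-2b haplotype, in which the H2-Ea chain is not made, so the chain encoded by H2-Eb1 does not reach the surface as I-E.

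H2-Aa and H2-Eb1, neighbouring genes of the class II region on chromosome 17 in RefSeq, gave the 2 class II chain probes whose levels were ordered alike over the groups, and their promoter windows show the shared box letters. Both windows are RefSeq's of build GRCm38.p6, 300 bases each, read 5′ to 3′ on the gene's strand: chr17:34287774-34288073 on the minus strand for H2-Aa and chr17:34305617-34305916 on the plus strand for H2-Eb1. Capitals mark the Y box letters CTGATTGG in both, the palindrome TGACGTCA of a CREB-bound X2 box in H2-Aa, and the X1 letters AGCAAC in H2-Eb1.
H2-Aa: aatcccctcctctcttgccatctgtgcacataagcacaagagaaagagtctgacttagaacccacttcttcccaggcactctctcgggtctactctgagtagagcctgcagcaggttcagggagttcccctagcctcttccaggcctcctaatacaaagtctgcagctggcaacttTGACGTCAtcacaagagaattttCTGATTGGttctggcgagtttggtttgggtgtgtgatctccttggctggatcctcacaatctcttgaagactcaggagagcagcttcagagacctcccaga
H2-Eb1: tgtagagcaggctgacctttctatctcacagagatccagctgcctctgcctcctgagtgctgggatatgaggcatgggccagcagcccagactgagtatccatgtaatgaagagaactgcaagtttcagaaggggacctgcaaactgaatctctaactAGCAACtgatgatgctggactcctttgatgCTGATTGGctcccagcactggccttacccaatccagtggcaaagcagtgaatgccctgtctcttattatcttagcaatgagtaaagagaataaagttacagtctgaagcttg
The Y box letters began 51 bases before the start site in H2-Aa and 62 bases before it in H2-Eb1. Searched on both strands, they occurred in 4.1% of all 32851 mouse promoter windows of this length. TGACGTCA began 74 bases before the start of H2-Aa (1.79% of windows), and AGCAAC began 92 bases before the start of H2-Eb1 (14.8% of windows). A pattern of C/EBP factors, TTNNGNAA, matched 2 places of the H2-Eb1 window on the opposite strand and none of the H2-Aa window, and occurred in 40.7% of windows. A match is a match of letters only. The windows of H2-DMa (2 start sites) and Cd80 held none of these 4 motifs. H2-Ab1, Cd74, Ciita, Cd86 and Cd40 had no window in this set and were not searched.

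Array medians ranged from 24 to 42 and means from 461.3 to 700.1 intensity units before normalization, and the lowest Pearson's r across probes between arrays of a group was 0.983. Intensities below are quantile normalized, in arbitrary units, and cannot be set against each other between probes; fold changes are on the scale log2(intensity + 16), which understates the change of dim genes. A probe under 30 on every array of a group was taken as at background there. The targeted gene, Cebpa, had 69.1, 69.4 and 57.8 intensity units in treated floxed basophils, against 2973, 2822 and 2539 in treated wild type basophils. Untreated floxed basophils had 1055, 935 and 959 units of Cebpa, against 2280, 2602 and 2226 in untreated wild type basophils, so floxed cells differed from wild type cells without the drug too. Fresh basophils had 2105 to 2393 units and mast cells 45.7 to 63.8. The basophil proteases Mcpt8 and Prss34, defining markers, averaged 39085 and 45013 units in fresh basophils, against 9411 and 1525 in mast cells, and the mast cell factor Mitf averaged 152 units in fresh basophils, against 4985 in mast cells. Of 9 basophil markers, 5 were higher and 1 lower in fresh basophils than in mast cells, and of 8 mast cell markers 7 were lower. Over all probes, 18.3% were higher and 22.3% lower in that comparison.

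With the drug, 6 of the 9 genes were lower in floxed than in wild type basophils and none was higher (limma, Benjamini-Hochberg adjusted p under 0.05). Of all probes, 14.9% were lower in this comparison and 15.9% higher, 30.7% in all. The 3 class II chain genes, Cd74, Ciita and Cd86 were lower, Cd86 by the most, while H2-DMa, Cd80 and Cd40 did not pass the test. The median log2 fold change of the 9 genes was -0.62, beside -0.004 over all probes.

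H2-Aa encodes the alpha chain of I-A. It had 5769, 5581 and 6285 units in treated floxed basophils, against 12836, 11217 and 13047 in treated wild type basophils. The groups did not overlap, and H2-Aa was 2.10-fold lower (log2 -1.07, SE 0.09, adjusted p = 1.6e-07). H2-Eb1, the beta chain gene of I-E, had 1540, 1609 and 1604 units in treated floxed basophils, against 3174, 3053 and 2937 in treated wild type basophils. Every treated floxed array lay below every treated wild type array, a 1.92-fold difference (log2 -0.94, SE 0.07, adjusted p = 4.08e-08). H2-Ab1, which encodes the beta chain of I-A and so pairs with the product of H2-Aa, had 409, 413 and 549 units in treated floxed basophils, against 698, 765 and 652 in treated wild type basophils. It too was lower without overlap, by 1.54-fold (log2 -0.62, SE 0.16, adjusted p = 0.00714), with floxed replicate 3 above its fellows. In bulk RNA, fewer cells of a type and less RNA per cell cannot be told apart.

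Cd74 encodes the invariant chain, which occupies the peptide groove until class II reaches the endosome. Its probe read 851, 923 and 808 units in treated floxed basophils, against 1600, 1526 and 1655 in treated wild type basophils. That is 1.84-fold lower without overlap (log2 -0.88, SE 0.10, adjusted p = 2.65e-06), and the other 2 probes of Cd74 were lower as well, by 0.93 and 0.51 log2 units (adjusted p = 1.03e-05 and 0.0362). H2-DMa, a chain of the molecule that exchanges the invariant chain's remnant for peptide, had 146, 155 and 132 units in treated floxed basophils, against 149, 159 and 117 in treated wild type basophils. The groups overlapped and the difference of 0.03 log2 units did not pass (95% confidence interval -0.20 to 0.26, adjusted p = 0.878). Ciita was dim throughout, with 36.4, 35.4 and 31.0 units in treated floxed basophils, against 55.3, 55.4 and 53.3 in treated wild type basophils. It was 1.41-fold lower without overlap (log2 -0.49, SE 0.12, adjusted p = 0.00324), with the floxed values just above the background limit of 30.

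Cd86, the ligand of CD28 and CTLA-4 that these cells expressed, had 127, 112 and 135 units in treated floxed basophils, against 577, 621 and 583 in treated wild type basophils. It was 4.35-fold lower (log2 -2.12, SE 0.10, adjusted p = 6.52e-11), and no array of either group came near the other. Cd80, the other CD28 ligand, stayed at background in all 6 groups, its highest array being 11.8 units, so no fold is given for it. Cd40, the receptor through which T cells act back on presenting cells, had 39.4, 35.4 and 40.4 units in treated floxed basophils, against 40.5, 46.8 and 29.8 in treated wild type basophils. The groups overlapped (log2 -0.005, 95% confidence interval -0.38 to 0.37, adjusted p = 0.99), and the dimmer probe of Cd40, at background in all groups, is given no fold although it was called lower (adjusted p = 0.0065).

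**Figure D1:**
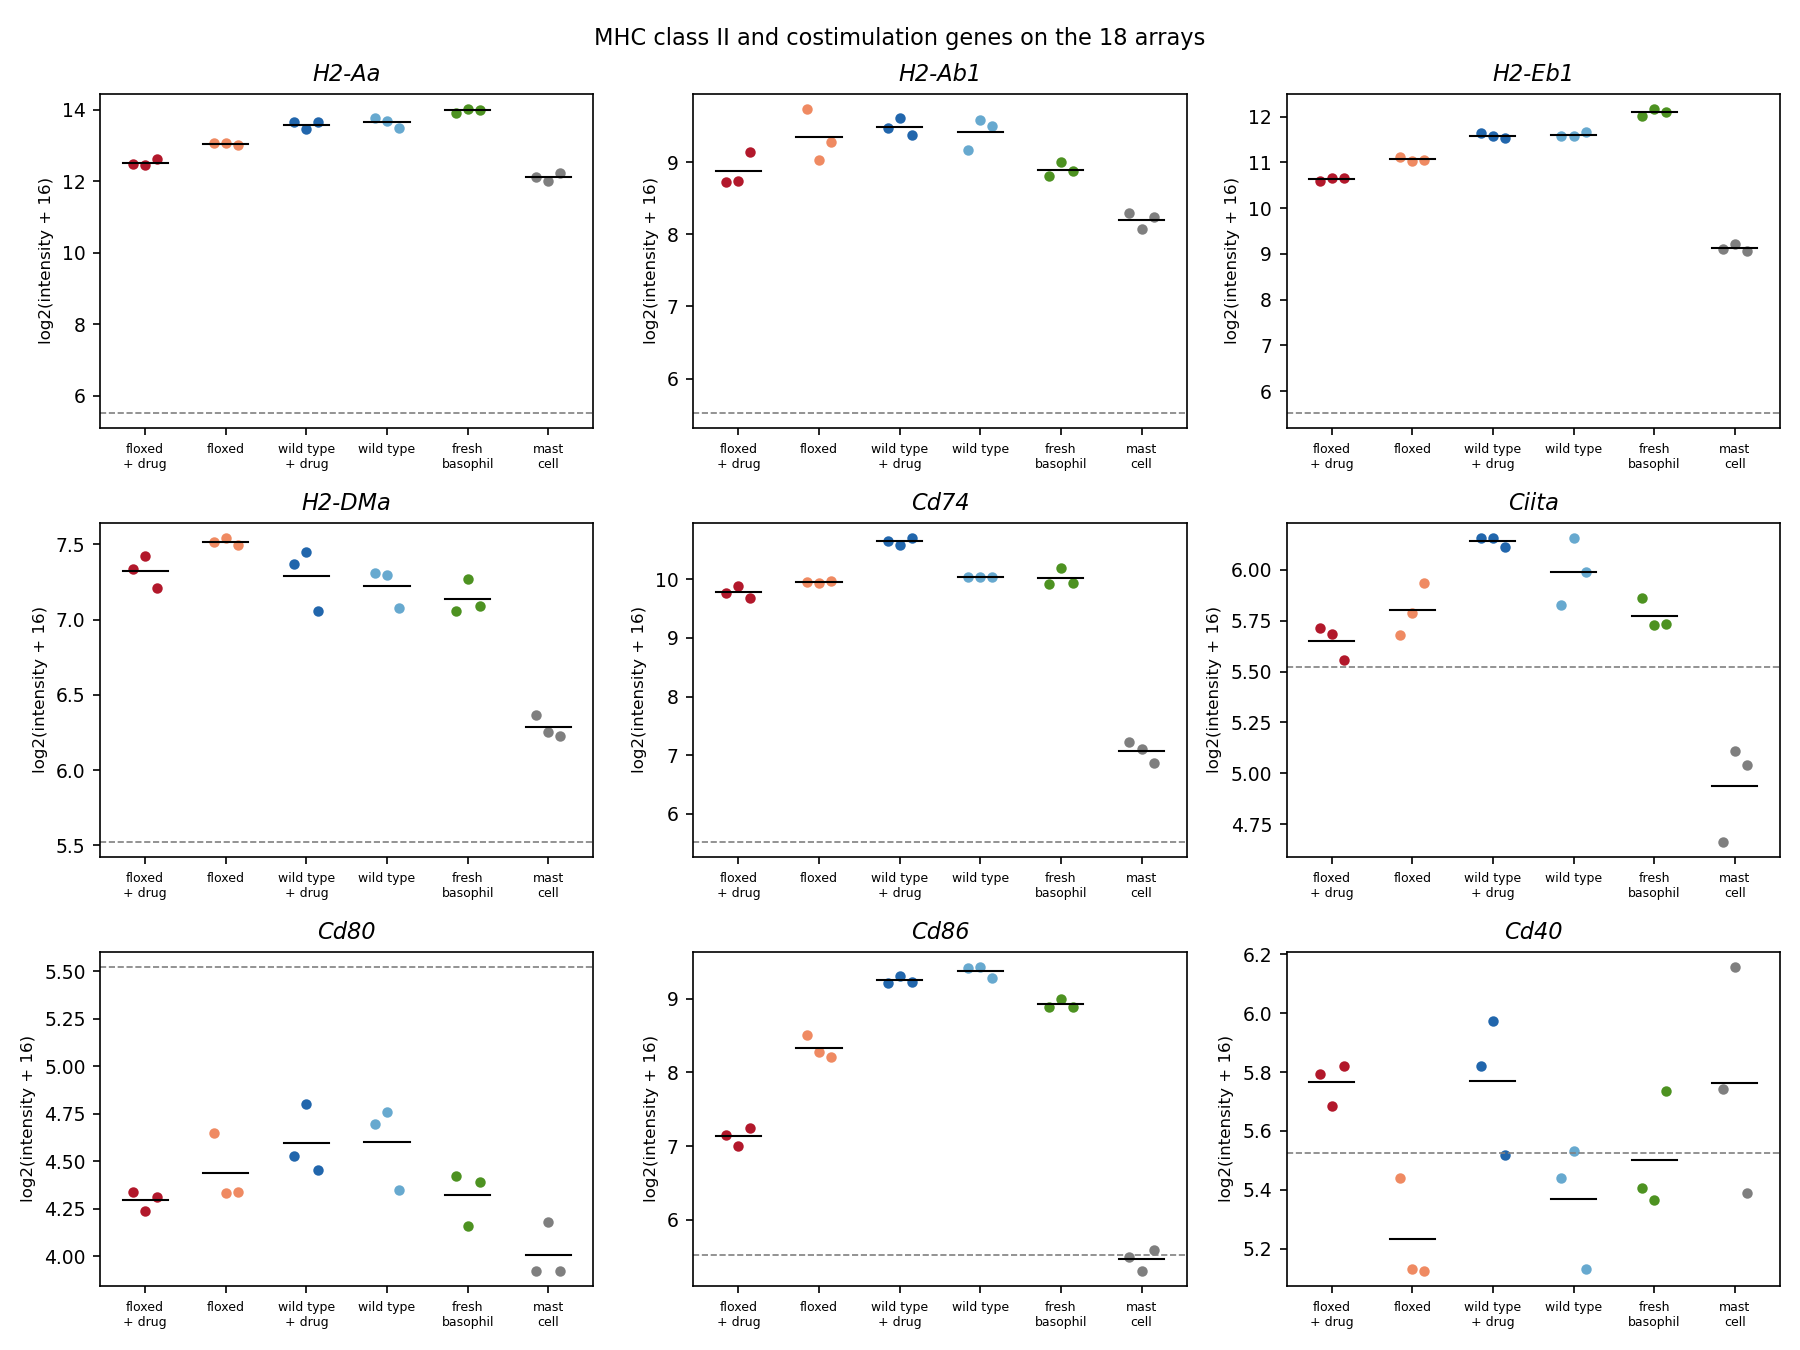
Normalized intensity of the 9 genes as log2(intensity + 16), 1 point per array and a line at the mean of 3 arrays, with groups along the x axis, a separate y axis for each gene and the background limit of 30 units dashed. Cd86 separated treated floxed basophils (112 to 135 units) from treated wild type basophils (577 to 621 units) and mast cells (23.6 to 32.2 units), and Cd80 lay below the limit on every array.

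Without the drug, 3 of the 9 genes were lower in floxed than in wild type basophils, H2-Aa, H2-Eb1 and Cd86, and none was higher. Of all probes, 7.27% were lower and 8.54% higher, 15.8% in all. The median of the 8 members other than Cd80, left out after its values were seen to lie at background, was -0.16 log2 units, beside 0.002 over all probes. H2-Aa had 8622, 8692 and 8209 units in untreated floxed basophils, against 13996, 13205 and 11585 in untreated wild type basophils, which did not overlap (1.51-fold lower, log2 -0.60, SE 0.09, adjusted p = 0.000239). H2-Eb1 had 2202, 2075 and 2104 units in untreated floxed basophils, against 3058, 3050 and 3220 in untreated wild type basophils (1.46-fold lower, log2 -0.54, SE 0.07, adjusted p = 5.99e-05). Cd86 had 347, 296 and 281 units in untreated floxed basophils, against 670, 677 and 610 in untreated wild type basophils (2.07-fold lower, log2 -1.05, SE 0.10, adjusted p = 1.1e-06). For H2-Eb1 and Cd86, too, every floxed array lay below every wild type array. With each array scaled to its median in place of quantile normalization, only Cd86 passed, and H2-Aa and H2-Eb1 kept their direction at adjusted p = 0.132 and 0.101.

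The other 6 genes did not pass without the drug. Cd74 had 979, 957 and 981 units in untreated floxed basophils, against 1030, 1037 and 1032 in untreated wild type basophils, a separation without overlap of only 1.06-fold (adjusted p = 0.671). H2-Ab1 averaged 651 ± 170 units in untreated floxed basophils and 674 ± 104 in untreated wild type basophils (SD, n = 3 each; adjusted p = 0.858), with replicate 1 of the floxed group at 840 units the highest array of that gene. H2-DMa was the member whose value was positive, 167, 171 and 164 units in untreated floxed basophils against 143, 141 and 119 in untreated wild type basophils. Its groups did not overlap (log2 0.29, SE 0.11), but its adjusted p of 0.0798 missed the threshold and lay between 0.0404 and 0.0487 with an offset of 50, the dimmest 30% of probes left out, array weights or the replicate number as a block. Ciita, Cd80 and Cd40 overlapped between the groups.

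Among floxed basophils, treated cells were lower than untreated cells in 4 of the 9 genes and higher in 1. Of all probes, 9.67% were lower and 9.92% higher, 19.6% in all. Cd86 fell furthest, to 125 ± 11.9 units in treated, against 308 ± 34.6 units in untreated floxed basophils (SD, n = 3 each; 2.30-fold, log2 -1.20, SE 0.10, adjusted p = 1.56e-07). H2-Aa was 1.45-fold lower (log2 -0.53, SE 0.09, adjusted p = 0.000535) and H2-Eb1 1.34-fold lower (log2 -0.42, SE 0.07, adjusted p = 0.000516), both without overlap. H2-Ab1 was 1.39-fold lower with overlapping arrays (adjusted p = 0.0484). Cd40 had 39.4, 35.4 and 40.4 units in treated floxed basophils, against 27.4, 19.1 and 18.9 in untreated floxed basophils, which were at background, so it was at least 1.28-fold higher (adjusted p = 0.0421). The calls of H2-Ab1 and Cd40 rested on few arrays: H2-Ab1 did not pass without treated floxed replicate 1 or 2 or untreated floxed replicate 1 or 3 (adjusted p = 0.163, 0.157, 0.236 and 0.075), and Cd40 lost its call with each array of either group left out in turn, all but untreated floxed replicate 1 (adjusted p from 0.0677 to 0.132).

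In wild type basophils treated and untreated cells did not differ past the test in 8 of the 9 genes, and Cd74 alone rose with the drug, by 1.53-fold (log2 0.62, SE 0.10, adjusted p = 0.000236). Of all probes, 11.2% were higher and 10.1% lower, 21.3% in all. Cd74 had 1600, 1526 and 1655 units in treated wild type basophils, against 1030, 1037 and 1032 in untreated wild type basophils, and its other 2 probes were higher as well (log2 0.85 and 0.63, adjusted p = 6.52e-05 and 0.0158). The lower Cd74 of treated floxed against treated wild type basophils went with a higher level in the wild type cells under the drug. In floxed cells Cd74 averaged 861 ± 58.3 units with the drug and 972 ± 13.3 without it (SD, n = 3 each; adjusted p = 0.268). Cd86 averaged 594 ± 24.1 units in treated wild type basophils and 652 ± 36.9 in untreated ones, with overlapping arrays (adjusted p = 0.42). H2-Aa and H2-Eb1 in wild type cells differed by -0.06 and -0.03 log2 units with the drug (adjusted p = 0.727 and 0.874), and without any normalization between arrays both, and Cd86, were called lower.

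The genotype difference with the drug was set against that without it in an interaction term, which 4 of the 9 genes passed, all with a more negative difference under the drug; 6.46% of all probes passed in that direction and 6.17% in the other, 12.6% in all. Cd86 differed most (log2 -1.07, SE 0.14, adjusted p = 6.65e-05), followed by Cd74 (-0.79, SE 0.14, adjusted p = 0.00101), H2-Aa (-0.47, SE 0.13, adjusted p = 0.0284) and H2-Eb1 (-0.40, SE 0.11, adjusted p = 0.0197). H2-Ab1 had a value of -0.55 but a larger error (SE 0.23, adjusted p = 0.144). H2-Aa did not pass without treated floxed replicate 1 or 2, untreated floxed replicate 1 or 2, treated wild type replicate 1 or 3, or untreated wild type replicate 3 (adjusted p from 0.0502 to 0.0828), and H2-Eb1 did not pass without treated wild type replicate 1 (adjusted p = 0.0519), which left 2 of the 9 genes called. H2-Eb1 also lost its call when arrays were scaled to their medians (adjusted p = 0.0651) or left without normalization (log2 -0.16, adjusted p = 0.452), and was positive with its probes averaged (0.25, adjusted p = 0.495). H2-Aa did not pass without normalization between arrays (adjusted p = 0.128). Cd86 and Cd74 passed with each of the 12 cultured arrays left out in turn. The interaction takes its 4 group means from the comparisons above and is no separate evidence.

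**Figure D2:**
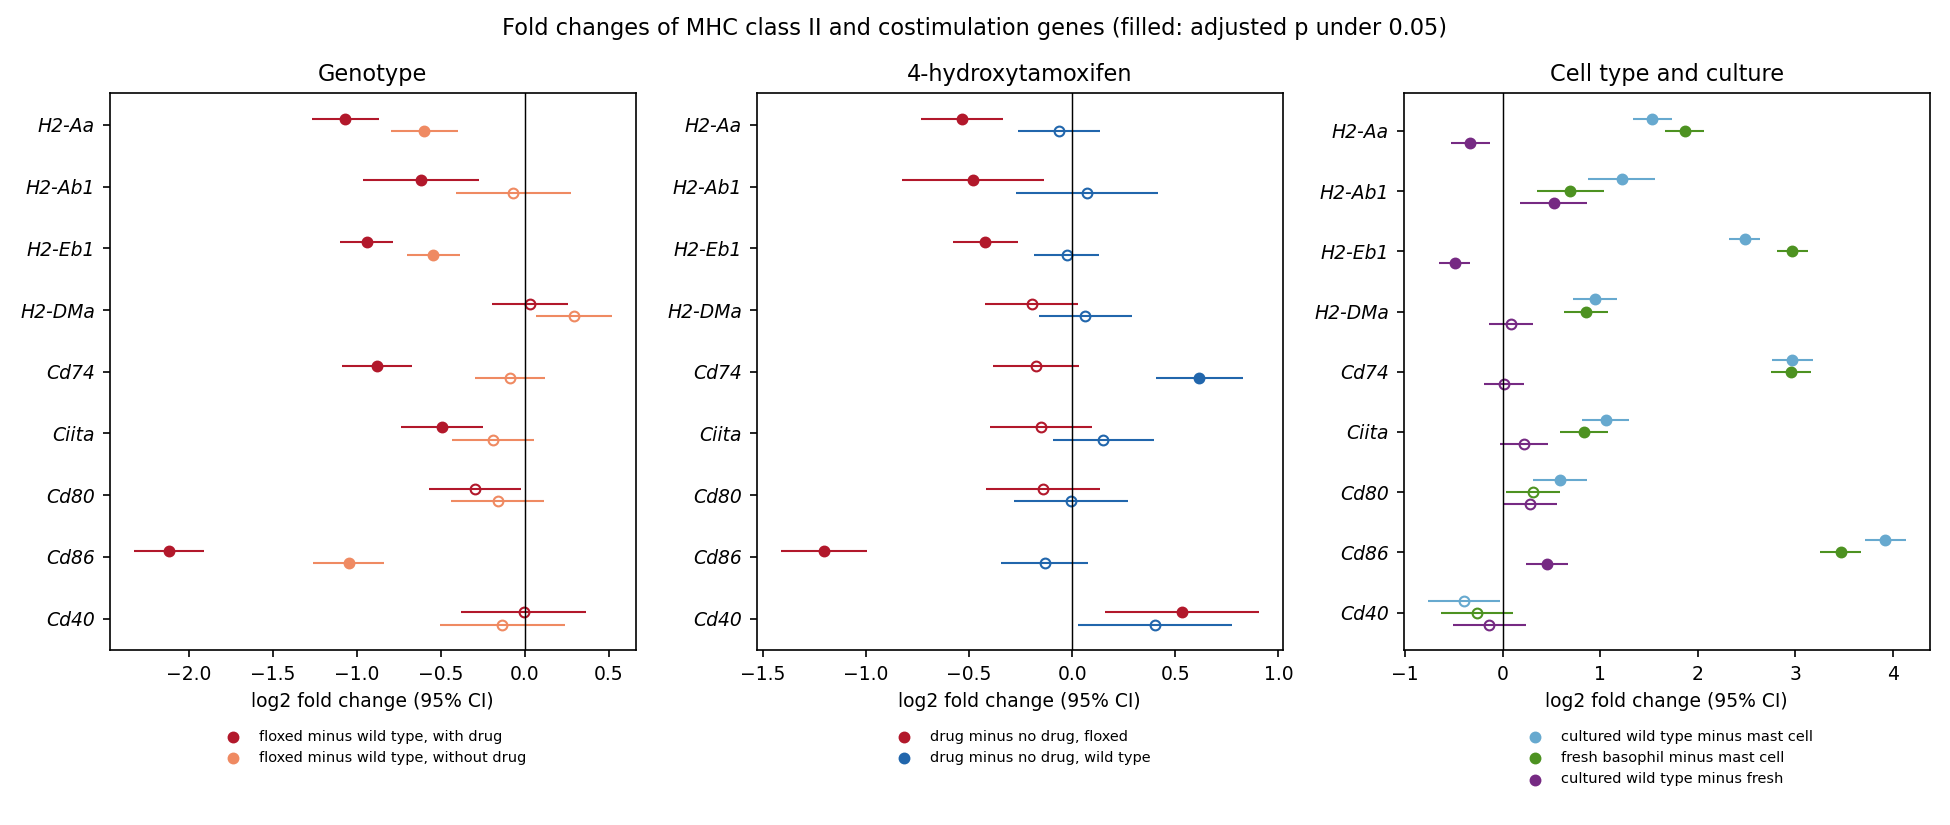
Log2 fold changes of the 9 genes with 95% confidence intervals, by genotype, by drug and by cell type and culture; filled points passed an adjusted p of 0.05 and open points did not. The genotype panel shows Cd86 at -2.12 with the drug and -1.05 without it, and Cd74 at -0.88 with the drug and -0.09 without it.

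Fresh basophils were higher than mast cells for 7 of the 9 genes, and none was lower. Of all probes, 18.3% were higher and 22.3% lower, 40.6% in all. The members' median was 0.86 log2 units, beside -0.04 over all probes. Cd86, H2-Eb1 and Cd74 differed most, while Cd80 was at background in both cell types and Cd40 overlapped. Cell type went with culture here, since mast cells had been cultured and fresh basophils had not, and cell type and culture cannot be told apart in this comparison.

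Cd86 had 458, 496 and 460 units in fresh basophils, against 29.0, 23.6 and 32.2 in mast cells, 1 of which was above the background limit (11.0-fold higher, log2 3.47, SE 0.10, adjusted p = 1.53e-14). H2-Eb1 had 4100, 4606 and 4404 units in fresh basophils, against 536, 577 and 520 in mast cells (7.82-fold higher, log2 2.97, SE 0.07, adjusted p = 2.49e-15). Cd74 had 954, 1158 and 965 units in fresh basophils, against 134, 122 and 100 in mast cells (7.75-fold higher, log2 2.95, SE 0.10, adjusted p = 1.11e-13). For these 3 genes each fresh basophil array lay far above every mast cell array. H2-Aa had 15559, 16772 and 16376 units in fresh basophils, against 4451, 4078 and 4845 in mast cells, so it was bright in mast cells too (3.64-fold higher, log2 1.86, SE 0.09, adjusted p = 3.42e-11). H2-DMa averaged 125 ± 11.5 units in fresh basophils and 62.0 ± 4.07 in mast cells (SD, n = 3 each; adjusted p = 3.99e-06), and H2-Ab1 460 ± 34.5 and 279 ± 22.6 units (adjusted p = 0.0022). Ciita had 42.1, 37.0 and 37.2 units in fresh basophils and was at background in mast cells, so it was at least 1.29-fold higher (adjusted p = 1.29e-05).

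Untreated wild type basophils, which like the mast cells had been cultured in interleukin-3, were called higher than mast cells for 8 of the 9 genes, Cd80 being the eighth although it was at background in both. Of all probes, 16.9% were higher and 22.3% lower, 39.2% in all. The folds were 15.1 for Cd86, 7.83 for Cd74, 5.58 for H2-Eb1, 2.89 for H2-Aa, 2.33 for H2-Ab1 and 1.92 for H2-DMa, and at least 1.58 for Ciita, with adjusted p-values from 3.66e-15 to 8.45e-06 and no overlap. Both comparisons share the mast cell arrays. Cd40 had 27.4, 30.2 and 19.1 units in untreated wild type basophils, against 37.5, 55.4 and 25.9 in mast cells, and did not pass (adjusted p = 0.0895). Without mast cell replicate 3 it was called lower (log2 -0.58, adjusted p = 0.0134). The dimmer probe of Cd40 went the other way and was called higher (adjusted p = 5.07e-05). It was at background in both groups and is given no fold.

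Members differed in both directions between cultured and fresh basophils. Fresh cells followed an interleukin-3 injection and have no genotype given, while cultured cells carried RosaYFP/creER. Culture cannot be told apart from these in this comparison. Compared with fresh basophils, untreated wild type basophils after culture were higher for H2-Ab1 and Cd86 and lower for H2-Aa and H2-Eb1, where 17.3% of all probes were higher and 17.6% lower, 34.9% in all. Cd86 averaged 652 ± 36.9 units in cultured and 471 ± 21.7 in fresh basophils (SD, n = 3 each; log2 0.45, SE 0.10, adjusted p = 0.0014). H2-Ab1 had 557, 755 and 711 units in cultured basophils, against 431, 498 and 452 in fresh basophils (log2 0.53, SE 0.16, adjusted p = 0.0173). H2-Eb1 was 1.40-fold lower in cultured basophils (log2 -0.49, SE 0.07, adjusted p = 4.59e-05) and H2-Aa 1.26-fold lower (log2 -0.33, SE 0.09, adjusted p = 0.0104). These 4 genes did not overlap between the groups, so the 2 chains of I-A differed in opposite directions. H2-Ab1 did not pass without fresh replicate 1 or cultured replicate 2 or 3 (adjusted p = 0.0618, 0.0806 and 0.0613), H2-Aa did not pass without cultured replicate 3 (adjusted p = 0.0681), and with median scaling only H2-Eb1 passed. Cd74 did not differ beyond its spread on its brightest probe (log2 0.02, adjusted p = 0.936) but was higher in cultured cells on the next (log2 0.69, adjusted p = 0.000149), so its probes disagreed here.

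Ordered by mean level, H2-Aa and H2-Eb1 ran alike: fresh basophils, untreated and treated wild type basophils, untreated floxed basophils, treated floxed basophils, mast cells. Every neighbouring pair in that order differed (adjusted p of 0.0104 or less) except the 2 wild type groups, which did not differ beyond their spread. Cd86 ran from untreated and treated wild type basophils, which did not differ, to fresh basophils, untreated floxed basophils, treated floxed basophils and mast cells, with each later step past the test (adjusted p from 0.0147 to 5.12e-10). Cd74 was highest in treated wild type basophils and lowest in mast cells, and the other 4 basophil groups did not differ between neighbours (adjusted p from 0.268 to 0.936). H2-DMa differed between neighbours only at the step to mast cells, as did Ciita, and Cd40 at none. H2-Ab1 was highest in both wild type groups and untreated floxed basophils, which did not differ between neighbours, then lower in fresh and treated floxed basophils (adjusted p = 0.0382 for that step), and lowest in mast cells. Treated floxed basophils stayed above mast cells for H2-Aa (5878 ± 365 and 4458 ± 384 units, SD, n = 3 each; adjusted p = 0.0029), and the step was larger for Cd86 (log2 1.67) and Cd74 (log2 2.71).

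The dimmer probe of H2-Eb1, whose highest array in any group was 43.8 units, did not follow the brighter one. It had 39.4, 43.8 and 19.8 units in treated floxed basophils, against 14.7, 37.0 and 14.7 in treated wild type basophils, which overlapped (log2 0.42, SE 0.26, adjusted p = 0.272). With both probes averaged, H2-Eb1 differed by -0.26 log2 units between these groups and did not pass (adjusted p = 0.192), and it differed by 0.24 between treated and untreated floxed basophils (adjusted p = 0.284). In untreated floxed basophils it was at background, and it was called at least 1.08-fold higher with the drug there (adjusted p = 0.0204), where the brighter probe was lower. Mast cells were at background too, and fresh basophils were at least 1.33-fold higher on this probe (adjusted p = 0.00199), where the brighter probe was higher as well.

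Other genes of class II presentation were split by genotype. Of 21 measured genes of that list, the 5 members included, 9 were lower and 3 higher in treated floxed than in treated wild type basophils (median log2 fold change -0.30, beside -0.004 over all probes). The shares over all probes were 14.9% lower and 15.9% higher. Of the 16 genes that are not members, 5 were lower and 3 higher. Lgmn, an endosomal protease that starts the trimming of the invariant chain, averaged 658 ± 58.9 units in treated floxed and 2472 ± 122 in treated wild type basophils (SD, n = 3 each; log2 -1.89, adjusted p = 4.22e-10). Cst3, an inhibitor of cysteine cathepsins, averaged 115 ± 10.5 units in treated floxed and 338 ± 10.2 in treated wild type basophils (log2 -1.44, adjusted p = 4.36e-09). H2-Ob, a chain of the molecule that holds H2-DM back, went the other way, with 116 ± 12.9 units in treated floxed and 50.7 ± 4.07 in treated wild type basophils (log2 0.99, adjusted p = 1.02e-05). Ctsh, a cathepsin, was 1.73-fold lower (adjusted p = 0.000436).

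Over all probes, 7.27% were lower and 8.54% higher in floxed basophils without the drug. Of the class II presentation list, 7 genes were lower and 1 higher there, and 5 and 1 of them were not members. Lgmn (log2 -1.50), the cathepsin genes Ctsl (-0.85) and Ctss (-0.76) and H2-Ob (0.90) differed most (adjusted p of 0.000168 or less). In fresh basophils against mast cells, all 21 genes passed, 16 higher and 5 lower, where 18.3% of all probes were higher and 22.3% lower. Among the list's genes that are not members the largest differences were Ctsh (log2 5.78), Ctss (4.02), Lgmn (2.81) and Ctsl (2.49). Ctss encodes the protease of the last step of invariant chain cleavage, and Ctsl can stand in for it in some cells. Against fresh basophils, cultured wild type basophils were 16.3-fold higher in Ctsl, at 15853 ± 2207 and 953 ± 22.1 units (SD, n = 3 each; adjusted p = 1.21e-13). They were lower in Marchf1, a ubiquitin ligase that removes class II and CD86 from the surface, at 31.1 ± 8.54 and 89.5 ± 6.73 units (adjusted p = 3.05e-05).

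Of 21 measured genes of a list of CIITA, its partners and its upstream regulators, the member Ciita included, 8 were lower and 2 higher in treated floxed than in treated wild type basophils, and 1 was lower without the drug. Over all probes, 14.9% were lower and 15.9% higher with the drug, and 7.27% lower and 8.54% higher without it. Of the 20 listed genes that are not members, 7 were lower and 2 higher with the drug. With the drug, the largest differences were in Irf4 (log2 -1.32) and Irf8 (-1.07), transcription factors of antigen-presenting cells, in Ifngr2 (-0.96), a chain of the interferon-gamma receptor, and in Jak2 (-0.91), its kinase (adjusted p from 7.51e-08 to 0.000115). The interaction was passed by 6 genes of this list, 5 negative and 1 positive, beside 6.46% and 6.17% of all probes. Among the 6 were Jak2 (-0.81, adjusted p = 0.000108), Ifngr2 (-0.73, adjusted p = 0.000311) and Irf4 (-0.94, adjusted p = 0.00768), and with a positive value Spi1, the gene of PU.1 (0.80, adjusted p = 0.000711). Among wild type cells, Irf4 averaged 198 ± 14.8 units with the drug, against 416 ± 49.6 without it (SD, n = 3 each; adjusted p = 0.000142), and Spi1 319 ± 30.7 units, against 613 ± 44.4 (adjusted p = 5.22e-06).

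**Figure D3:**
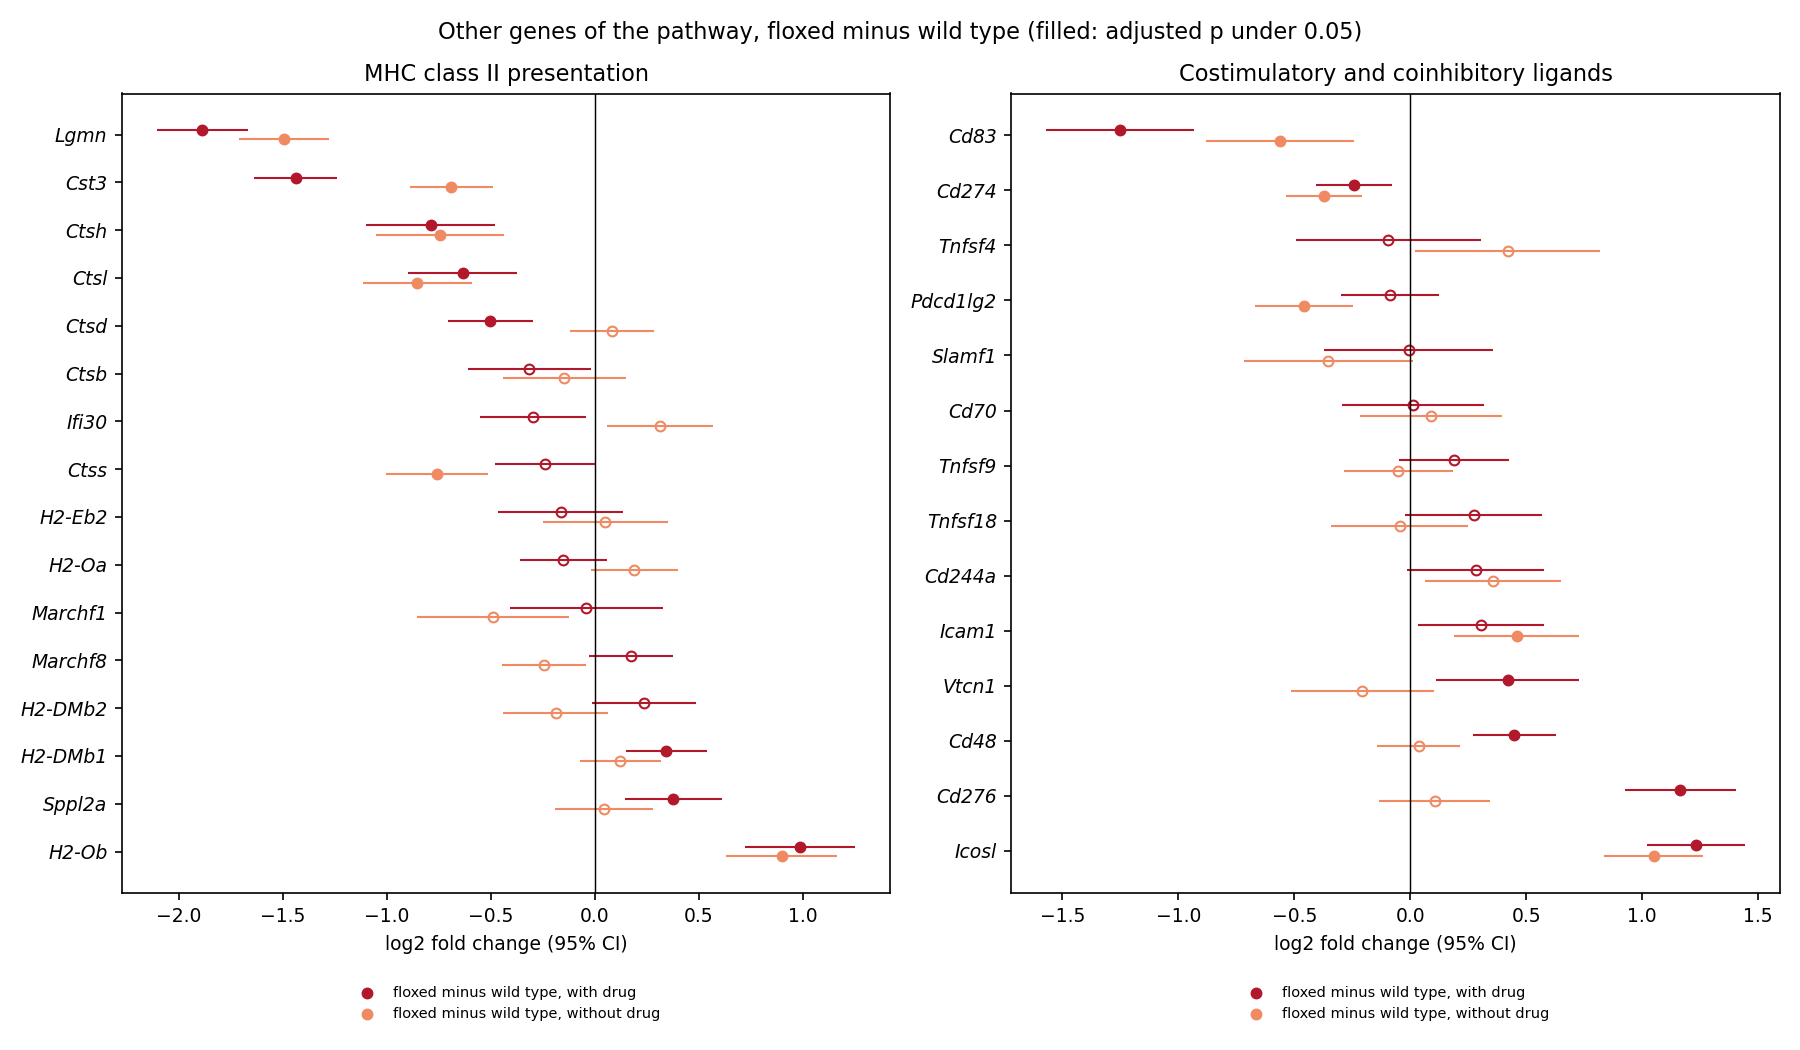
Log2 fold changes with 95% confidence intervals of the listed genes that are not members, floxed minus wild type basophils, with the drug (dark) and without it (light); filled points passed an adjusted p of 0.05. Lgmn at -1.89 and H2-Ob at 0.99 mark the ends of the class II presentation list with the drug, and Cd83 at -1.25 and Icosl at 1.23 those of the costimulatory list.

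Costimulatory and coinhibitory ligands did not move as 1 group. Of 17 measured genes, 3 were lower and 4 higher in treated floxed than in treated wild type basophils, where 14.9% of all probes were lower and 15.9% higher, and of the 14 that are not members, 2 were lower and 4 higher. Cd83, a surface protein that stabilises class II and CD86 on dendritic cells, averaged 168 ± 14.0 units in treated floxed and 422 ± 32.4 in treated wild type basophils (SD, n = 3 each; adjusted p = 5.55e-06). Icosl, the ligand of ICOS, averaged 431 ± 28.9 and 174 ± 3.82 units (adjusted p = 5.37e-08), and Cd276, encoding B7-H3, 234 ± 23.3 and 95.4 ± 4.78 units (adjusted p = 4.69e-07). Icosl was also higher in untreated floxed basophils, at 676 ± 62.0 against 318 ± 14.5 units (adjusted p = 1.14e-06), and Cd83 lower (adjusted p = 0.0162). In untreated wild type cultured against fresh basophils, 8 of the 17 genes were higher and 1 lower, where 17.3% of all probes were higher and 17.6% lower. The genes of both PD-1 ligands were among the 8. Pdcd1lg2 averaged 2828 ± 46.1 units in cultured and 496 ± 30.6 in fresh basophils, and Cd274 2945 ± 117 and 1037 ± 47.8 units (adjusted p = 3.58e-12 and 8.22e-11). Of 13 measured genes of CD40 and NF-kappa-B signalling (of 15 listed; Traf3 and Nfkb1 had no named probe), 4 were lower and 2 higher with the drug in floxed against wild type basophils, Nfkb2 the most (log2 0.57, adjusted p = 0.000465).

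Markers of other cell types differed between the groups as well. For this list and the marker lists below, shares over all probes with the drug were 14.9% lower and 15.9% higher in floxed cells. Without the drug they were 7.27% lower and 8.54% higher. Of 11 measured monocyte and macrophage markers, 10 were lower and 1 higher in treated floxed than in treated wild type basophils, and 9 lower and 1 higher without the drug. Their summed level was 7824 to 8032 units in treated floxed, 9597 to 10880 in untreated floxed, 11456 to 12538 in treated wild type and 12743 to 13621 in untreated wild type basophils. It was 34515 to 36062 units in fresh basophils and 2421 to 2686 in mast cells, where 10 of the 11 were higher in fresh basophils, beside 18.3% of all probes. None of the 11 was at background in fresh or wild type basophils. C1qa averaged 342 units in treated floxed basophils and 1065 in treated wild type basophils, and Csf1r 327 and 865 units. Ccr2 was the marker that was higher in treated floxed basophils, at 4058 units against 739 in treated wild type basophils. Without Ccr2, a choice made after its values were seen, the other 10 summed to 3707 to 3969 units in treated floxed and 10737 to 11750 in treated wild type basophils. The median of the 11 was -1.56 log2 units with the drug. Their part in the results on the members was not tested.

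Of 10 dendritic cell markers, 3 were lower and 1 higher in treated floxed than in treated wild type basophils, and 4 were lower without the drug. The dendritic cell list summed to 1299 to 1317 units in treated floxed, 1939 to 2095 in untreated floxed, 1789 to 1837 in treated wild type and 3025 to 3396 in untreated wild type basophils, 1315 to 1446 in fresh basophils and 2784 to 3113 in mast cells. Xcr1, Clec9a, Siglech, Cd209a and Flt3 were at background in every group. The other 5 markers, Itgax, Batf3, Ccr7, Zbtb46 and Clec10a, were above it on all arrays of each cultured basophil group. In fresh basophils 4 of the 10 markers were above it on all arrays, and in mast cells 3. Itgax, Batf3 and Ccr7 were lower in treated floxed than in treated wild type basophils (adjusted p = 8.3e-07, 1.08e-05 and 2.84e-06). Of 8 measured B cell markers, 3 were lower in floxed basophils with the drug and 3 without it, with sums of 567 to 926 units in treated floxed, 506 to 530 in untreated floxed, 1081 to 1132 in treated wild type and 707 to 779 in untreated wild type basophils. Their sums were 1567 to 1735 units in fresh basophils and 433 to 487 in mast cells. Of the 8, 4 were above background on all arrays of each basophil group and 3 in mast cells. Ms4a1, Pax5 and Ebf1 were at background in every group. The part of these markers in the results was not tested either.

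Of 8 neutrophil markers, 6 were lower and 1 higher in treated floxed than in treated wild type basophils, and likewise 6 and 1 without the drug. They summed to 3178 to 3680 units in treated floxed, 6951 to 7840 in untreated floxed, 11765 to 12188 in treated wild type, 23806 to 26134 in untreated wild type and 64373 to 66353 in fresh basophils, against 475 to 532 in mast cells. By group, these sums and those of the monocyte and macrophage list were both ordered as the levels of H2-Aa and H2-Eb1 were. Of 5 measured eosinophil markers 3 were higher and 2 lower with the drug, and of 5 T and NK cell markers 1 was higher and 1 lower. The part of the neutrophil, eosinophil and lymphocyte markers was not tested.

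Mast cell markers ran the other way with the drug: 5 of 8 measured were higher and none lower in treated floxed than in treated wild type basophils. They summed to 56164 to 63580 units in treated floxed, 10346 to 11070 in untreated floxed, 19340 to 20745 in treated wild type, 14393 to 15609 in untreated wild type and 641 to 690 in fresh basophils, against 107335 to 113912 in mast cells. Without the drug 4 of the 8 were lower in floxed basophils and none higher. The basophil list summed to 194819 to 199212 units in treated floxed and 212814 to 217241 in treated wild type basophils, and 2 of its 9 genes were higher and 3 lower in the former. Mcpt8 averaged 50584 and 48201 units in these groups (adjusted p = 0.684), and Prss34 20028 and 46128 units (adjusted p = 4e-09). The part of these markers in the members' results was not tested.

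**Figure D4:**
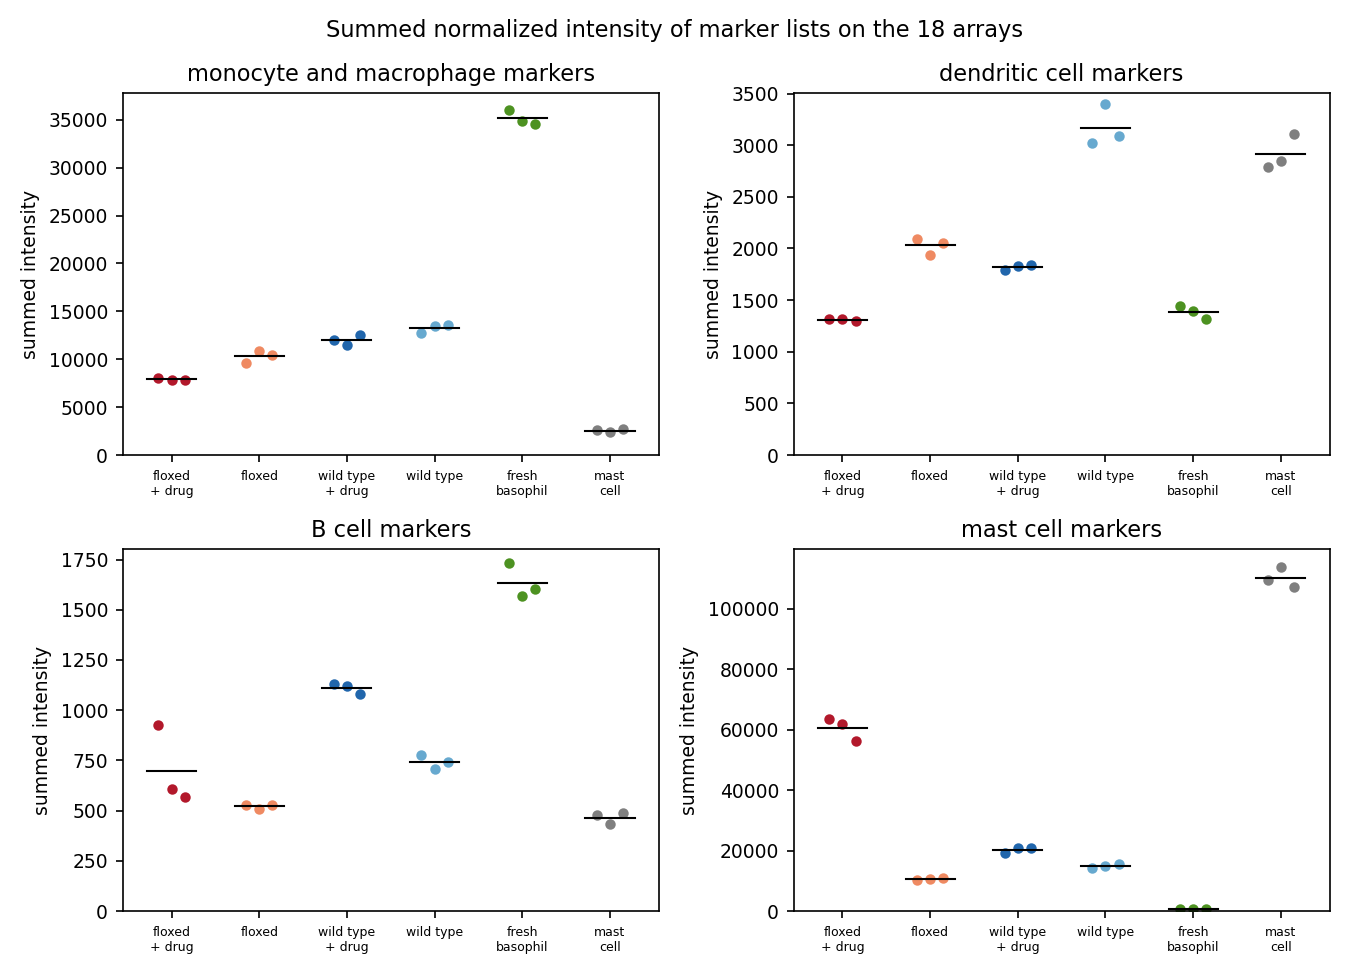
Summed normalized intensity of 4 marker lists, 1 point per array and a line at the mean of 3 arrays, with the groups along the x axis and y axes that start at 0. Macrophage markers summed to 7824 to 8032 units in treated floxed and 11456 to 12538 in treated wild type basophils, and mast cell markers to 56164 to 63580 and 19340 to 20745 units.

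Over the 18 arrays, the genes whose log2 values were most like a member's were sought among 12201 genes above background in at least 1 group, by Pearson's r, which is carried by differences between the groups. Cd86 was followed most closely by S1pr1, Ldhc and Id1 (r = 0.994, 0.993 and 0.993), H2-Eb1 by Anxa3, Csf1r and Bace1 (0.992, 0.992 and 0.991), and H2-Aa by Prkd3, Ms4a6c and Spry2 (each 0.989). Csf1r is 1 of the macrophage markers above. Cd74 was most like H1f2, Rab4a and Pld3 (0.990, 0.989 and 0.987), and Ciita most like Cd83, Csf1 and Satb1 (0.962, 0.961 and 0.961). H2-DMa was most like Fam234b, Egln3 and Clec2g (0.967, 0.961 and 0.959), and H2-Ab1 most like Paxx, Peli1 and Hdac5 (0.949, 0.945 and 0.942). Cd40 had no close companion, with Kctd5 at 0.793, Napa at 0.782 and Dohh at 0.776. Among the members themselves, over the 15 basophil arrays, H2-Aa and H2-Eb1 had an r of 0.976 and Cd86 and H2-Aa 0.889, while H2-Aa had 0.195 with H2-Ab1 and -0.49 with H2-DMa. These are descriptions of arrays that share groups and normalization.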

How the data were processed

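RNA of 18 samples was hybridized to single-colour arrays after Trizol and column extraction and cyanine labelling, per the labels' protocols. The authors deposited linear probe intensity values, below 0 for some probes and so background-subtracted; scanner and earlier normalization: not given in the sources used here. Probes were named from the platform annotation (21876 with a symbol, 4547 without). Intensities were quantile normalized over all arrays and transformed as log2(intensity + 16), starting from the deposited values. All 6 group means were fitted together in R 4.3.3 by limma's lmFit and moderated by eBayes (version 3.58.1). Its two-sided p-values were adjusted by Benjamini and Hochberg's method over 26423 probes and called under 0.05. Folds of a group at background (under 30 on all its arrays, a limit chosen after data were seen) are bounds, with the dim values raised to the limit. With 3 arrays per group, their number limits the precision.

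The members and lists were chosen with earlier results of these data known. Named are the members, Cebpa, up to 4 other genes per list and comparison by size of change among those past the test, and the 3 genes most like each member; marker genes in the text were chosen after their values were seen. Replicate numbers showed no pairing common to all groups: the deviations of same-numbered arrays correlated at -0.05, -0.03 and 0.009 on average. Single pairs of groups ranged from -0.39 to 0.16, and pairing of some groups only was not tested. The fit was tested on simulated data with known changes. Alternatives were median scaling, no normalization between arrays, scaling on probes above background, an offset of 50, the dimmest 30% of probes left out, an intensity trend, array weights, only the groups compared, the replicate block, probes averaged or the next brightest probe, a background limit of 60, and each array left out.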

Additional observations from a re-analysis of the deposited data

Results flagged for a closer look

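For 4 of the 9 genes the genotype difference with 4-hydroxytamoxifen differed from that without it by the interaction test, each being more negative under the drug. Of all probes, 6.46% passed in that direction and 6.17% in the other, 12.6% in all. The difference of differences was -1.07 log2 units for Cd86, -0.79 for Cd74, -0.47 for H2-Aa and -0.40 for H2-Eb1 (adjusted p = 6.65e-05, 0.00101, 0.0284 and 0.0197). Cd74 averaged 861 ± 58.3 units in treated floxed and 972 ± 13.3 in untreated floxed basophils, against 1594 ± 65.0 in treated wild type and 1033 ± 3.52 in untreated wild type basophils (SD, n = 3 each). Cd86 averaged 125 ± 11.9 units in treated floxed and 308 ± 34.6 in untreated floxed basophils, against 594 ± 24.1 in treated wild type and 652 ± 36.9 in untreated wild type basophils, so it was lower in floxed cells without the drug too (log2 -1.05, adjusted p = 1.1e-06). H2-Aa lost its call in 9 of 22 alternatives. For H2-Eb1 the value was positive with its probes averaged (0.25, adjusted p = 0.495). No reason for these differences was tested.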

How the results depend on the processing

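Of 38 calls among the 72 member tests, 25 were kept under every alternative run and 13 were lost or reversed under at least 1, while 13 of the 34 tests without a call gained one. Median scaling moved the members called to 1 for culture and 1 for genotype without the drug; no normalization between arrays moved them to 2 for culture, 4 for the drug in wild type cells and 2 for the interaction; averaging probes moved them to 3 for the drug in floxed cells. H2-Eb1 turned positive with probes averaged (0.24 for the drug in floxed cells, 0.25 for the interaction) and on its dimmer probe (0.42 for genotype with the drug, 0.91 and 0.90 for the same 2 results), which lay at or near background. Leaving out each array gave 7 to 8 members called for fresh basophils against mast cells, 8 to 9 for cultured basophils against mast cells, 3 to 4 for culture, 6 for genotype with the drug, 3 without it, 3 to 4 for the drug in floxed cells, 1 in wild type cells and 2 to 4 for the interaction. The replicate block gave 7, 8, 4, 6, 4, 4, 1 and 4 members in that order, and the replicate numbers showed no pairing common to all groups. Median scaling called 3569 probes for the drug in wild type cells and 1902 for the interaction, against 5624 and 3338. The percentage of called probes that were higher moved from 49.6 (culture), 54.0 (genotype without the drug), 50.6 (drug, floxed), 52.4 (drug, wild type) and 48.8 (interaction) to 37.3, 74.2, 35.2, 68.6 and 24.6 with median scaling, which shifted the median of all probes by -0.13 log2 units in the interaction. Without normalization it was 77.8 for fresh basophils against mast cells (otherwise 45.1), 66.8 for cultured basophils against mast cells (43.1), 35.6 for culture, 62.1 (51.6) and 33.6 for genotype with and without the drug, 22.7 for the drug in wild type cells and 78.4 for the interaction, with median shifts of 0.16, 0.11 and 0.12 in the mast cell comparisons and the interaction. Scaling on bright probes gave 41.8 for genotype without the drug. The causes were not tested. With a background limit of 60, 6 members stayed above it in each basophil group and 4 in mast cells. Signals near background limit what Ciita, Cd40 and Cd80 can show.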
